A study of Mus musculus with 12 samples.

Results

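Kinesins, cytoplasmic dynein and dynactin are the motor complexes that move cargo along the microtubules of an axon. The members described here are the protein-coding mouse genes whose symbol begins with Kif, Klc or Dctn and a digit, with Dync1 or Dync2, or with Dynl. The annotation holds 65 such genes, and 62 of them were listed among the 21753 genes of the series. The table of the AAV experiment listed 49 of them among 13178 genes, and the table of the ribose experiment listed 62 among 21650 genes. Kif12, Kif28 and Kif2b were listed in neither table. By the direction in which the complexes travel, 19 members were anterograde subunits, 20 were retrograde subunits, 20 were mitotic, ciliary or other kinesins, and 2 were chains of the dynein of cilia. The last one, Kif1bp, encodes a protein that binds kinesin motors and is no motor itself.

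RNA was sequenced from dorsal root ganglia of mice, where the cell bodies of sensory neurons lie, at lumbar levels that feed the sciatic nerve. All 12 libraries came from C57BL/6J mice labelled as 8 weeks old and were collected 72 h after spinal cord injury, with the tissue labelled as neurons of the sciatic ganglia. The AAV experiment held AAV-TKT, an adeno-associated virus carrying the transketolase gene Tkt, and AAV-GFP, the same kind of virus carrying green fluorescent protein, each injected through the sciatic nerve for 4 weeks. The ribose experiment held mice treated with 10% ribose and mice treated with vehicle. Every group had 3 libraries, every mouse had a spinal cord injury, and no uninjured group was part of the series. The sources used here do not give the promoter or serotype of the viruses. Nothing in the sources says that the 3 libraries of a group came from separate animals, so a p-value here speaks of the spread between libraries alone, and that spread may be technical.

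A sensory axon is supplied from its cell body by anterograde transport towards microtubule plus ends, which kinesins carry out. Cytoplasmic dynein, with its activator dynactin, brings cargo back, including the signals of axon injury that reach the cell body. Kinesin-1 is built from a pair of heavy chains that walk and a pair of light chains that hold cargo, while kinesin-3 motors carry vesicle precursors and dense-core vesicles. Many other kinesins work in mitotic spindles or cilia, structures that a neuron's axon does not have.

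Values are FPKM, fragment numbers scaled by transcript length and by the mapped fragments of the library, and the read depth behind them is unknown. Summed FPKM over all listed genes lay between 413635 and 456084 in the AAV libraries and between 510551 and 551370 in the ribose libraries. Tkt, the gene carried by the virus, stood at 223, 259 and 262 FPKM in the AAV-TKT libraries, against 107, 101.7 and 98.1 FPKM in the AAV-GFP libraries. That was a log2 change of 1.27 (SE 0.0843, limma adjusted p = 0.0054), and reads from the virus cannot be told apart from those of the mouse gene. The 6 neuron markers summed to 5770 to 6492 FPKM in AAV-TKT, against 4918 to 5573 FPKM in AAV-GFP. Markers of other cells were present as well. In AAV-TKT against AAV-GFP, 6 neutrophil markers summed to 18.5 to 28.8 FPKM against 89.3 to 241 FPKM, and 4 listed Schwann cell markers to 293 to 325 FPKM against 343 to 378 FPKM. The 4 listed macrophage markers summed to 10.6 to 14.9 FPKM in AAV-TKT against 30.55 to 42.3 FPKM in AAV-GFP, and red cell markers to 71.5 to 94.15 FPKM in AAV-TKT against 113 to 471 FPKM in AAV-GFP. Sums for neuron types did not overlap either. Large-diameter markers summed to 1005 to 1146 FPKM in AAV-TKT against 798.5 to 892 FPKM in AAV-GFP. Non-peptidergic nociceptor markers summed to 128 to 140.3 FPKM in AAV-TKT against 141 to 189 FPKM in AAV-GFP. Of the 5 markers in each list, 3 did not overlap. Nefh, also a neuron marker, made up most of the large-diameter sum, at 785 to 873.5 FPKM in AAV-TKT and 620 to 679 FPKM in AAV-GFP. The groups overlapped for the large-diameter markers Ntrk3 and Runx3 and for the non-peptidergic markers Plxnc1 and Mrgprd. In the ribose experiment, Schwann cell markers summed to 376 to 391 FPKM in Ribose, against 425 to 484 FPKM in Vehicle. Most of this sum was Pmp22, at 280 to 343 FPKM in Ribose and 317 to 390 FPKM in Vehicle. All 4 Schwann cell markers tested had changes below 0, and for each of them the groups overlapped. There the libraries numbered 2 stood apart in their neuron types. Large-diameter neuron markers summed to 440.2 FPKM in Ribose replicate 2 and 324 FPKM in Vehicle replicate 2, while the other libraries lay between 591 and 850.3 FPKM. Non-peptidergic nociceptor markers summed to 295 and 407 FPKM in the same libraries, while the others lay between 112 and 186 FPKM. In such bulk libraries, fewer cells of a type and less RNA per cell cannot be told apart.

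Most of the transport machinery was abundant. Of the members, 28 averaged at least 20 FPKM, the same 28 in both tables. Klc1, a light chain of kinesin-1, stood highest at a mean of 591 FPKM over the 6 AAV libraries, rank 55 of 13178 genes, and 507 FPKM over the 6 ribose libraries, rank 65 of 13804 genes tested. It was followed in both tables by Kif1b and Kif1a, the kinesin-3 motors of vesicle precursors, at 349.8 and 313 FPKM in the AAV libraries and 391 and 309 FPKM in the ribose libraries. The neuronal kinesin-1 heavy chain Kif5a averaged 271 FPKM in the AAV table, above Kif5c at 196 FPKM and the widely expressed Kif5b at 158 FPKM. Dync1h1, the heavy chain that is the motor of cytoplasmic dynein, averaged 214 FPKM there, and its light chain Dynll2 averaged 288 FPKM. At the low end, mitotic kinesins such as Kif11, which pushes spindle poles apart, averaged 1.28 and 1.25 FPKM in the AAV and ribose tables. In the ribose table, 12 members were under the mean of 1 FPKM that was required for testing, 7 of them mitotic kinesins. Every gene listed in the AAV table averaged 1 FPKM or more, so all of its 49 members were tested.

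**Figure D1:**
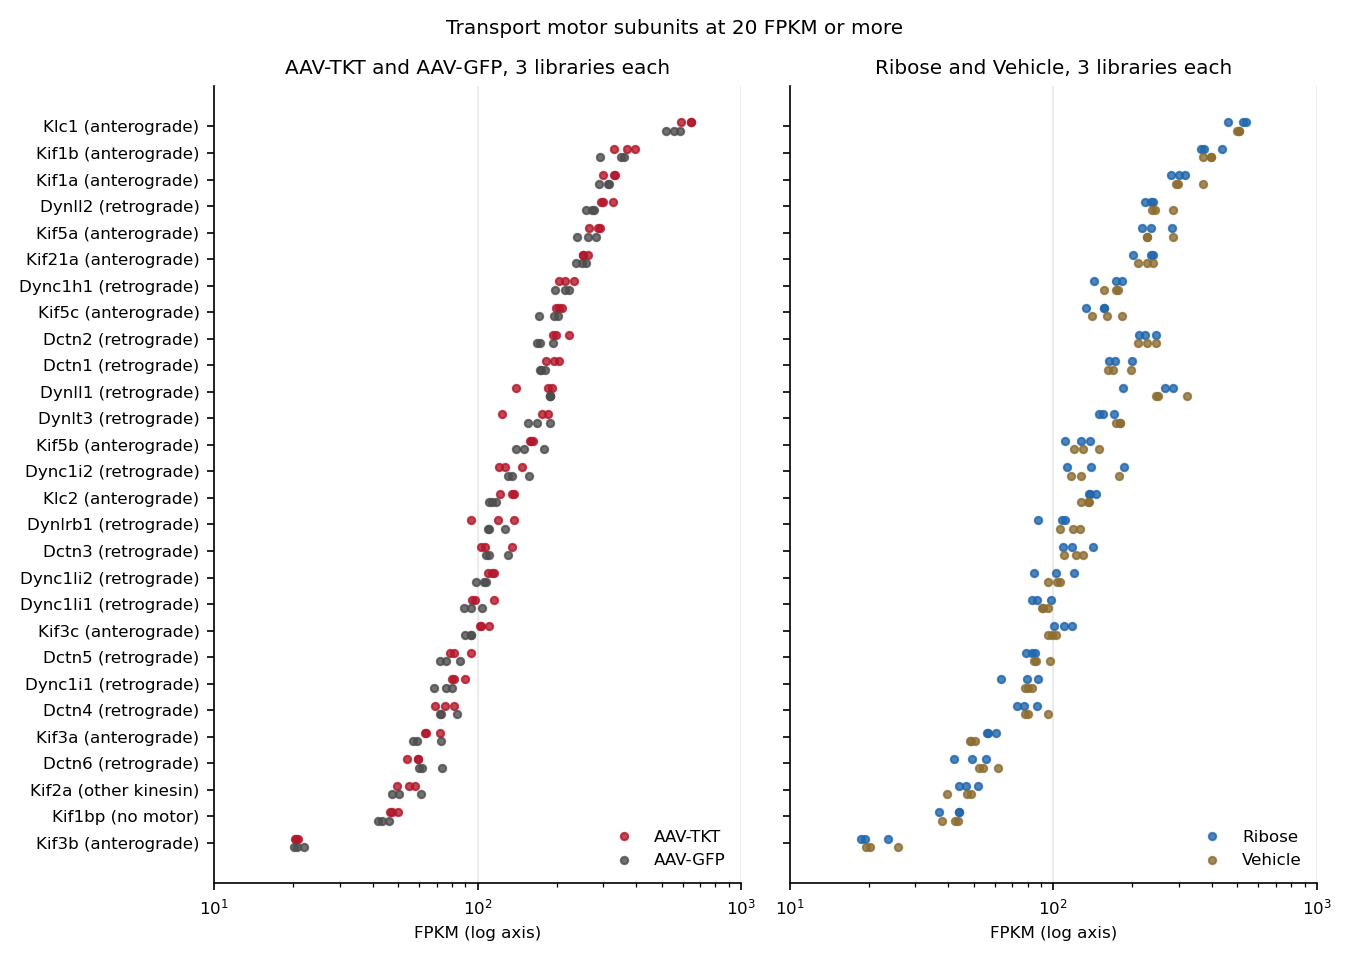
FPKM (log axis) of the 28 members averaging at least 20 FPKM, with 1 point per library, AAV-TKT and AAV-GFP on the left and Ribose and Vehicle on the right, and Klc1 at the top of both. Mean levels ran from 20.7 FPKM for Kif3b to 591 FPKM for Klc1 in the AAV table, a far wider range than that between the groups of any one gene.

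The first comparison asked how transketolase delivery to sensory neurons altered their expression after cord injury. None of the 49 motor members passed a limma adjusted p of 0.05 over all genes, a threshold that 2 genes or 0.0152% of the table passed. The smallest adjusted p of a member was 0.425. At an unadjusted p under 0.05 there were 3 members, Klc2, Kif3c and Dynll2, all higher in AAV-TKT, where 6.23% of all genes were higher and 4.36% lower at that level. The number was 0 of 48 without AAV-GFP replicate 3, 1 of 46 without AAV-TKT replicate 1 and 1 of 49 with equal library totals. All 3 AAV-TKT libraries lay above all 3 AAV-GFP libraries for 9 members, or 18.4%, beside 11.3% of all genes. They lay below for 1 member, or 2.04%, beside 7.2% of all genes. These counts moved with the scaling of the libraries. With every library scaled to the same total, 3 members lay above, or 6.12%, beside 5.08% of all genes. Of these, 2 were among the 9, Klc2 and Kif17. With median-of-ratios scaling, 8 of the 9 lay above and no other member, or 16.3% beside 8.91% of all genes. With protein-coding genes alone at equal totals, 7 of the 9 lay above and no other member, or 14.3% beside 6.2% of all genes. Below lay 3 members, or 6.12%, beside 12% of all genes.

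Light chains of kinesin-1, which join the motor to its cargo, had the highest median log2 change of the anterograde classes in AAV-TKT, 0.17 over 3 members. Klc2 (ENSMUSG00000024862, GRCm38 chromosome 19, 5107746 to 5118560, minus strand) had 138, 136 and 121 FPKM in the AAV-TKT libraries, against 117, 114 and 111 FPKM in the AAV-GFP libraries. The groups did not overlap, with a log2 change of 0.20 (SE 0.0733), unadjusted p = 0.0254 and limma adjusted p = 0.425. Klc1 had 648, 644 and 589.6 FPKM in the AAV-TKT libraries, against 558, 589 and 521 FPKM in the AAV-GFP libraries. Its groups did not overlap either, at a log2 change of 0.17 (SE 0.0866) and limma adjusted p = 0.505. With equal library totals or median-of-ratios scaling the Klc1 groups did overlap. Klc4, a less abundant light chain, averaged 10.3 ± 0.783 FPKM in AAV-TKT and 9.79 ± 0.623 FPKM in AAV-GFP (SD, n = 3 each), and its groups overlapped. The fourth light chain, Klc3, was listed in the ribose table alone, at a mean of 0.414 FPKM. The ratio of Klc2 to Klc1 averaged 0.21 in AAV-TKT and 0.205 in AAV-GFP, and its groups overlapped.

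Heavy chains of kinesin-1 showed smaller differences, with overlapping groups for each. Kif5a had 292, 287 and 265 FPKM in AAV-TKT, against 263, 283 and 238 FPKM in AAV-GFP. Kif5c, the other neuron-enriched heavy chain, had 198, 204 and 209 FPKM in AAV-TKT, against 194, 202 and 172 FPKM in AAV-GFP. Kif5b had 158, 159.9 and 162 FPKM in AAV-TKT, against 150.3, 179 and 139.7 FPKM in AAV-GFP. AAV-GFP replicate 3 was the lowest library for all 3 heavy chains and for 21 of the 28 members at 20 FPKM or more. Its summed FPKM over all listed genes, 413635, was also the lowest of the AAV libraries. So was its median-of-ratios scaling factor, 0.975. The share of all genes that were lowest in this library was not counted. Log2 changes of Kif5a, Kif5c and Kif5b were 0.11, 0.11 and 0.04, with 95% confidence intervals of -0.10 to 0.31, -0.08 to 0.29 and -0.19 to 0.27.

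Kinesin-2 motors were mixed. Kif3c, a kinesin-2 subunit that acts on microtubules of injured sensory axons, had 111, 103.5 and 102.1 FPKM in the AAV-TKT libraries, against 94.3, 94.5 and 90.0 FPKM in the AAV-GFP libraries. The groups did not overlap, at a log2 change of 0.18 (SE 0.0646), unadjusted p = 0.0257 and limma adjusted p = 0.425. Of its exonic bases, 40.7% overlap 1110002L01Rik and Gm48512 on the opposite strand. Whether the counting used strand is not stated, so reads of these genes may be mixed. The same applies to smaller exonic shares of other members, such as 10.6% for Klc2, 11.8% for Dctn6, 10.1% for Kif1bp and 19.2% for Kif2a. Kif17, a kinesin-2 of dendrites and cilia, was just above the 1 FPKM filter at 1.39, 1.35 and 1.41 FPKM in AAV-TKT, against 1.26, 1.04 and 1.10 FPKM in AAV-GFP, without overlap. Kif3a, which forms the main kinesin-2 complex with Kif3b, had 63.1, 72.3 and 63.8 FPKM in AAV-TKT, against 58.7, 72.9 and 56.9 FPKM in AAV-GFP, and Kif3b had 20.9, 20.5 and 20.2 FPKM in AAV-TKT, against 20.7, 21.9 and 20.2 FPKM in AAV-GFP. Both overlapped between the groups.

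Promoters of Klc1 and Kif3c are shown because these anterograde genes lay higher in every AAV-TKT library and have a RefSeq window, while Klc2 and Dynll2 have none in the table used here. With equal library totals the groups of both Klc1 and Kif3c overlapped. Each window runs from 250 bases before to 50 after the annotated start (GRCm38.p6, 5′ to 3′ on the gene's strand), at chr12:111758618-111758917 on the plus strand for Klc1 and chr12:3364882-3365181 on the plus strand for Kif3c. Capitals mark matches, on either strand, to the CCAAT box (CCAAT), the GC box (GGGCGG), the cAMP response element (TGACGTCA), the AP-1 element (TGANTCA), the NRF1 core (GCGCATGCG) or the TATA box (TATAAA).
Klc1: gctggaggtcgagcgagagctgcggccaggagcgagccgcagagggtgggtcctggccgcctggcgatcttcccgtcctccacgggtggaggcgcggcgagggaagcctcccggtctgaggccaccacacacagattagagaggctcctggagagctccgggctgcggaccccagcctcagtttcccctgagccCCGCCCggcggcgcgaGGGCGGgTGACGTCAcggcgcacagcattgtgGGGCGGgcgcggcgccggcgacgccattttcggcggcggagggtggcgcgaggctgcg
Kif3c: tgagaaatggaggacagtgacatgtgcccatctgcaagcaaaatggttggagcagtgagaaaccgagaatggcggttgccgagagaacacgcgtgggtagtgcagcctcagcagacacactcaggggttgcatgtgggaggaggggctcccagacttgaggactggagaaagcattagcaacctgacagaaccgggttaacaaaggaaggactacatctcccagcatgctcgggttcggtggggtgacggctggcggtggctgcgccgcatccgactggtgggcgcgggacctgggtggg
The Klc1 window held 3 GC boxes and 1 cAMP response element, and the Kif3c window held none of the 6 motifs. Windows were available for 47 of the 62 members. A GC box was in at least 1 window of 34 of these members, a CCAAT box of 22, a cAMP response element of 5, a TATA box of 4, an NRF1 core of 3 and an AP-1 element of 0. Over all 32851 mouse windows of the same length, the shares holding the motifs were 35.7% for the GC box, 37.4% for the CCAAT box, 1.79% for the cAMP response element, 13.6% for the TATA box, 1.75% for the NRF1 core and 7.81% for the AP-1 element. A match describes letters alone, and some members have more than 1 window.

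Kinesin-3 and kinesin-4 motors overlapped between the groups in every case. Kif1b had 396, 331 and 368 FPKM in AAV-TKT, against 359.5, 352 and 293 FPKM in AAV-GFP. Kif1a had 332, 300.2 and 330.1 FPKM in AAV-TKT, against 314, 312 and 289 FPKM in AAV-GFP. Kif21a, a kinesin-4 that restrains microtubule growth, had 252, 263 and 252 FPKM in AAV-TKT, against 249, 258 and 237 FPKM in AAV-GFP. Their log2 changes were 0.13, 0.07 and 0.04, and that of Kif21a turned to -0.03 with equal library totals. The less abundant Kif13a, Kif13b, Kif16b and Kif1c averaged between 2.96 and 12.4 FPKM, with log2 changes of -0.13 to 0.03. Kif21b, the scarce paralog of Kif21a, had 3.25, 2.10 and 2.24 FPKM in AAV-TKT, against 2.13, 2.08 and 2.17 FPKM in AAV-GFP.

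Across the 18 anterograde members tested, 16 log2 changes were above 0, beside 53.7% of all genes. Groups did not overlap for 4 of the 18, or 22.2%, all higher, beside 11.3% of all genes higher and 7.2% lower. Among genes averaging at least 5 FPKM, 14 of 15 anterograde members lay above 0, beside 60.2% of all genes. At that filter 3 of the 15, or 20%, lay higher without overlap, beside 14% of all genes. With weights per library, 12 of the 18 lay above 0, beside 55.4% of all genes. The median log2 change of the 18 was 0.08, against 0.01 over all genes tested. With equal library totals, 11 of the 18 lay above 0 beside 36.7% of all genes, and the median was 0.009. Higher without overlap were then 2 of the 18, or 11.1%, beside 5.08% of all genes. The median also moved with single AAV-GFP libraries, to 0.14 without replicate 2 and 0.03 without replicate 3. The neuron and large-diameter neuron marker sums were higher, and the Schwann cell, macrophage and neutrophil marker sums lower, in all 3 AAV-TKT libraries, as given above. The part of these in the motor values was not tested.

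On the retrograde side, the dynein chains also gave small differences. Dync1h1 had 233, 215 and 204 FPKM in AAV-TKT, against 214, 222 and 197 FPKM in AAV-GFP. These groups overlapped, and the log2 change of 0.04 turned to -0.03 with equal library totals. Dync1i1, the neuron-enriched intermediate chain, which links dynein to dynactin, had 81.2, 89.6 and 80.2 FPKM in AAV-TKT, against 76.2, 79.7 and 68.6 FPKM in AAV-GFP. The libraries did not overlap, at a log2 change of 0.16 (SE 0.0814) and limma adjusted p = 0.513. Its widely expressed counterpart Dync1i2 had 121, 148 and 128 FPKM in AAV-TKT, against 131, 156 and 135 FPKM in AAV-GFP, with overlap. Dync1li2, a light intermediate chain that binds cargo adaptors, had 115, 113 and 109.8 FPKM in AAV-TKT, against 106, 108 and 98.9 FPKM in AAV-GFP, just without overlap, and Dync1li1 had 95.7, 115 and 98.1 FPKM in AAV-TKT, against 94.2, 103.6 and 88.9 FPKM in AAV-GFP, with overlap.

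Among the dynein light chains, Dynll2 and its near relative Dynll1 lay on opposite sides of 0. Dynll2, a light chain that also serves as a hub for other proteins, had 327, 300.2 and 293 FPKM in the AAV-TKT libraries, against 272, 276 and 259 FPKM in the AAV-GFP libraries. The libraries did not overlap, at a log2 change of 0.19 (SE 0.0749), unadjusted p = 0.0386 and limma adjusted p = 0.454. Dynll1 had 140.5, 192 and 186 FPKM in AAV-TKT, against 189, 188 and 188 FPKM in AAV-GFP. AAV-TKT replicate 1 alone was low for Dynll1, and likewise for Dynlt3 with 123, 184 and 175 FPKM in AAV-TKT, against 168, 188 and 156 FPKM in AAV-GFP, and for Dynlrb1 with 94.5, 138 and 119.7 FPKM in AAV-TKT, against 109, 127 and 110.5 FPKM in AAV-GFP. The 4 copies Dynlt1a, Dynlt1b, Dynlt1c and Dynlt1f share 71% to 92.7% of their 31-base words with other genes, chiefly each other, so how reads were split among them is uncertain. They averaged 1.12, 8.62, 2.84 and 5.35 FPKM in the order named, and the groups overlapped for each.

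Dynactin, the complex that makes dynein processive, held both signs. Dctn1, its large microtubule-binding subunit, had 204, 195 and 182 FPKM in AAV-TKT, against 174, 181 and 172 FPKM in AAV-GFP, without overlap, at a log2 change of 0.14 (SE 0.0709) and limma adjusted p = 0.505. Dctn2, dynamitin, had 194, 223 and 199 FPKM in AAV-TKT, against 194, 173 and 168 FPKM in AAV-GFP, with overlap at a log2 change of 0.20 (SE 0.0885). Dctn6, a pointed-end subunit, was the one member that lay lower without overlap. It had 59.6, 59.4 and 54.2 FPKM in AAV-TKT, against 59.9, 73.1 and 61.6 FPKM in AAV-GFP, a log2 change of -0.16 (SE 0.0916) and limma adjusted p = 0.546. Dctn3, Dctn4 and Dctn5 overlapped, with log2 changes of -0.02, -0.01 and 0.12. Over the 19 retrograde members tested, 10 changes were above 0 and 9 below, and the median of 0.007 lay beside 0.01 over all genes. That median was -0.007 without AAV-GFP replicate 3, and -0.06 with equal library totals, where the median of all genes was -0.05.

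**Figure D2:**
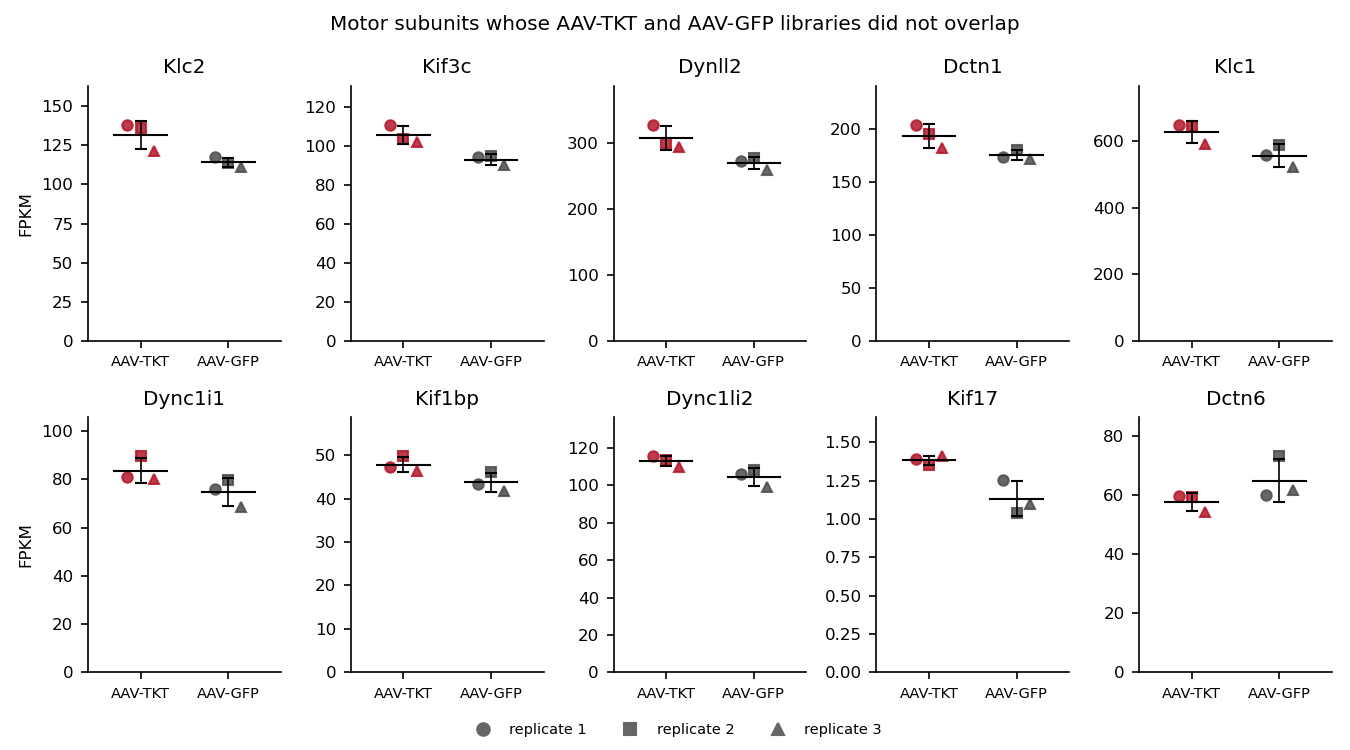
FPKM by library of the 10 members whose AAV-TKT libraries (left in each panel) and AAV-GFP libraries (right) did not overlap, with a horizontal line at the mean of 3 libraries and bars of 1 SD. Klc2 to Kif17 lay higher in all AAV-TKT libraries and Dctn6 lower, by margins that were small beside the levels.

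The remaining members had few differences. Kif1bp, the kinesin-binding protein, had 47.3, 49.7 and 46.4 FPKM in AAV-TKT, against 43.3, 46 and 41.8 FPKM in AAV-GFP, without overlap, at a log2 change of 0.13 (SE 0.0666). Kif2a, a kinesin-13 that takes microtubules apart at their ends and trims axon branches, had 49.3, 57.7 and 55.1 FPKM in AAV-TKT, against 50.5, 60.9 and 47.5 FPKM in AAV-GFP, with overlap. The cilium-side dynein chains Dync2h1 and Dync2li1 averaged 4.17 and 5.31 FPKM, with log2 changes of 0.05 and -0.10. Of 9 other kinesins tested, 3 had changes above 0. The mitotic Kif11, Kif22 and Kif23 were all between -0.12 and -0.09 with wide intervals, and Kif22, a chromosome-binding kinesin, had 2.47, 1.32 and 0.759 FPKM in AAV-TKT, against 1.73, 0.883 and 2.46 FPKM in AAV-GFP. Kif26b, a kinesin without motor activity that acts in cell signalling, averaged 12.5 ± 0.724 FPKM in AAV-TKT and 11.4 ± 0.497 FPKM in AAV-GFP (SD, n = 3 each). Kif9, Kif19a, Kif24 and Kif26a overlapped as well.

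Summed over the members, anterograde subunits came to 2582 ± 67.7 FPKM in AAV-TKT and 2386 ± 159 FPKM in AAV-GFP (SD, n = 3 each). The lowest AAV-TKT library, at 2525 FPKM, lay only just above the highest AAV-GFP library, at 2520.0 FPKM. As a share of each library's summed FPKM, the same sums were 0.583% ± 0.0246 in AAV-TKT and 0.565% ± 0.0379 in AAV-GFP, and the groups overlapped. Retrograde subunits came to 2155 ± 132 FPKM in AAV-TKT and 2079 ± 92.2 FPKM in AAV-GFP, with overlap. Set against the summed neuron markers, the order turned round. Anterograde subunits were 42.6% ± 2.74 of the marker sum in AAV-TKT and 45.5% ± 2.27 in AAV-GFP, with overlap. Retrograde subunits were 34.5% to 36.5% in AAV-TKT and 37.4% to 41.3% in AAV-GFP, without overlap. Among these markers, Tubb3, Prph and Nefh are themselves cytoskeletal genes. In all 12 libraries of the series, the anterograde sum exceeded the retrograde sum.

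**Figure D3:**
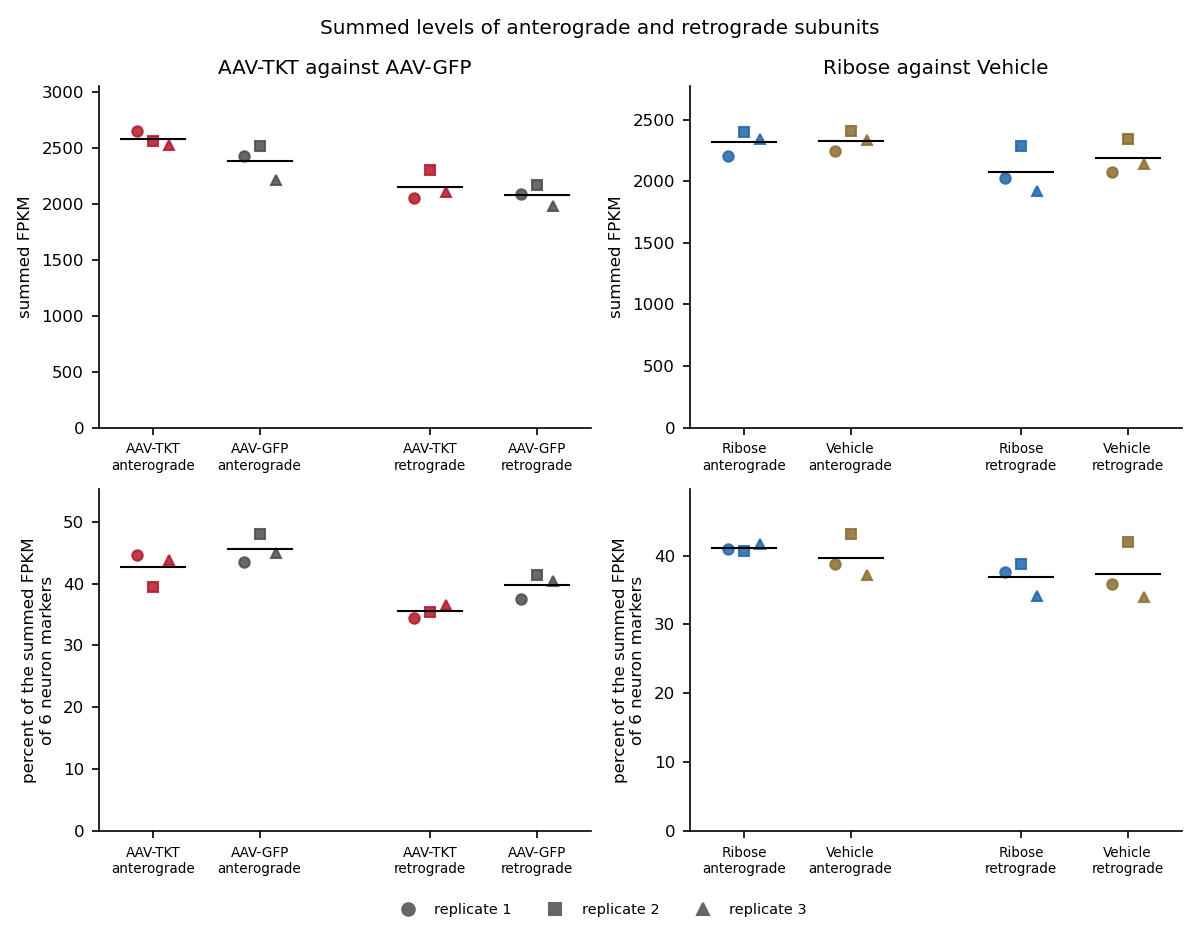
Summed FPKM of anterograde and retrograde subunits by library (top) and the same sums as a percentage of the summed FPKM of 6 neuron markers (bottom), with a line at the mean of 3 libraries. Retrograde subunits relative to neuron markers were 34.5% to 36.5% in AAV-TKT and 37.4% to 41.3% in AAV-GFP, and no other pair in the bottom row was apart.

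The second comparison set 10% ribose against vehicle. None of the 50 members tested passed a limma adjusted p of 0.05 over all genes, which 1 gene or 0.00724% of the table passed. The smallest adjusted p of a member was 0.976. Unadjusted p was under 0.05 for 1 member that lay higher, Kif24, and 1 that lay lower, Dynlt1f, where 2.8% of all genes were higher and 1.99% lower. All Ribose libraries lay above all Vehicle libraries for 3 members, or 6%, beside 4.28% of all genes, and below for 2 members, or 4%, beside 5.35% of all genes. These shares were near those of all genes. Changes above 0 numbered 23 of 50, beside 44.8% of all genes.

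Kif24, a kinesin-13 that restrains the growth of cilia from centrioles, had 10.2, 7.03 and 9.49 FPKM in the Ribose libraries, against 5.67, 6.41 and 3.94 FPKM in the Vehicle libraries. The groups did not overlap, at a log2 change of 0.65 (SE 0.225), unadjusted p = 0.0219 and limma adjusted p = 0.976. In the AAV table it had 4.55, 4.44 and 2.79 FPKM in AAV-TKT, against 4.13, 6.29 and 3.79 FPKM in AAV-GFP, with overlap. The kinesin-2 motor Kif3a had 56.4, 55.9 and 60.9 FPKM in the Ribose libraries, against 48.6, 48.5 and 50.7 FPKM in the Vehicle libraries. Here too the groups did not overlap, at a log2 change of 0.22 (SE 0.0963), unadjusted p = 0.0522 and limma adjusted p = 0.9998. Kif3b, its partner, had 19.3, 23.6 and 18.7 FPKM in Ribose, against 20.1, 25.7 and 19.5 FPKM in Vehicle, with overlap, and Kif3c averaged 109 ± 8.48 FPKM in Ribose and 98.8 ± 3.46 FPKM in Vehicle (SD, n = 3 each), also with overlap.

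The windows around the starts of Kif3a and Kif24 are shown as the 2 members that lay higher in Ribose with the smallest unadjusted p. They lie at chr11:53567119-53567418 on the plus strand for Kif3a and chr4:41464799-41465098 on the minus strand for Kif24 (GRCm38.p6), with capitals as above.
Kif3a: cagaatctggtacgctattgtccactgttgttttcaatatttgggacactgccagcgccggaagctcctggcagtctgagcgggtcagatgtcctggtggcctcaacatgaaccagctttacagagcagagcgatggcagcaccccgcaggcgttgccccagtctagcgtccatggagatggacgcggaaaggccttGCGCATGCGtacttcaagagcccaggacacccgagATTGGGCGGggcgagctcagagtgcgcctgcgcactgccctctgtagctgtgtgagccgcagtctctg
Kif24: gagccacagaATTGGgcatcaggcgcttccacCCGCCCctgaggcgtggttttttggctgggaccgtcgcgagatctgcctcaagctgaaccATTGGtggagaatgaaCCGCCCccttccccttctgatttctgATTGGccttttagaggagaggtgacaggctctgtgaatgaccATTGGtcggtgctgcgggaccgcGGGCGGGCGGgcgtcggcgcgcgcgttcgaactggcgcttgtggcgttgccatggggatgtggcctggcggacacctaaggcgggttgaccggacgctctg
The Kif3a window held 1 NRF1 core, and 1 CCAAT box that overlaps 1 GC box. The Kif24 window held 4 CCAAT boxes and 4 GC boxes, 2 of which overlap.

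Klc2 alone among the members had groups without overlap in both experiments, higher in AAV-TKT and higher in Ribose. Of all genes, 11.3% lay higher without overlap in AAV-TKT and 4.28% in Ribose, and the share that did so in both was not counted. Under ribose it had 146, 137 and 138 FPKM in the Ribose libraries, against 128, 135 and 137 FPKM in the Vehicle libraries. The lowest Ribose and highest Vehicle libraries almost touched, and the log2 change of 0.07 (SE 0.0873) was about as large as its error. With equal library totals the Klc2 groups of the ribose experiment overlapped. Whether the effect of ribose differed from that of AAV-TKT was not tested, since the tables were made separately. Klc1 had 461, 538 and 526 FPKM in Ribose, against 500.0, 509.6 and 509 FPKM in Vehicle, with overlap and a log2 change near 0.

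The other anterograde motors overlapped between Ribose and Vehicle. Kif5a had 217, 282 and 235 FPKM in Ribose, against 228, 286 and 227 FPKM in Vehicle. In each group the library numbered 2 was the highest for Kif5a. Kif5c had 156, 133 and 156 FPKM in Ribose, against 159.8, 140.2 and 183 FPKM in Vehicle, with the library numbered 2 the lowest in each group. Kif1a had 299.9, 316 and 281 FPKM in Ribose, against 292, 369 and 298 FPKM in Vehicle, and Kif1b had 364, 375 and 438 FPKM in Ribose, against 398, 371 and 397 FPKM in Vehicle. Neither kinesin-3 motor separated the groups. Kif21a averaged 225 ± 21 FPKM in Ribose and 225 ± 14.6 FPKM in Vehicle (SD, n = 3 each). Over the 18 anterograde members tested, 9 changes were above 0, and the median was -0.001, beside -0.02 over all genes. Leaving out single libraries moved that median between -0.06, without Vehicle replicate 1, and 0.05, without Ribose replicate 1.

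More retrograde subunits lay lower than higher in Ribose, and none passed the test. Dynlt3, a dynein light chain that binds cargo, had 149.5, 169.8 and 154 FPKM in the Ribose libraries, against 173, 179.9 and 179.6 FPKM in the Vehicle libraries. The groups did not overlap, at a log2 change of -0.17 (SE 0.0914), unadjusted p = 0.106 and limma adjusted p = 0.9998. Dynlt1f, 1 of the near-identical copies, had 6.93, 6.33 and 3.27 FPKM in the Ribose libraries, against 13.3, 7.82 and 7.91 FPKM in the Vehicle libraries. Its log2 change of -0.73 (SE 0.305) had an unadjusted p of 0.0474, and reads may be shared with the other copies. Dynlt1c, another copy, had 3.07, 3.58 and 1.85 FPKM in Ribose, against 1.81, 1.74 and 1.89 FPKM in Vehicle, with overlap and a change of the other sign. Dynll1 had 285, 267 and 184 FPKM in Ribose, against 249, 322 and 245 FPKM in Vehicle, and Dynll2 had 236, 222 and 240.2 FPKM in Ribose, against 243, 236 and 286 FPKM in Vehicle. For both the groups overlapped.

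Dync1h1 had 142, 183 and 174 FPKM in Ribose, against 155, 176 and 173 FPKM in Vehicle, so dynein's heavy chain overlapped between Ribose and Vehicle. Dync1i1 had 63.4, 87.3 and 79.5 FPKM in Ribose, against 83.1, 79.9 and 78.3 FPKM in Vehicle. Ribose replicate 1 was its lowest library, and the other Ribose libraries lay on either side of 79.9 FPKM, the middle Vehicle value. Dctn1 averaged 178 ± 19 FPKM in Ribose and 175 ± 19.4 FPKM in Vehicle, Dctn2 226 ± 17 and 228 ± 17.8 FPKM, and Dctn6 48.8 ± 6.67 and 56 ± 4.96 FPKM (SD, n = 3 each). All 6 dynactin members overlapped. Of the 19 retrograde members tested, 5 had changes above 0 and 14 below, where 44.8% of all genes were above 0, and the median was -0.08 beside -0.02 over all genes. With 1 library left out, the number above 0 lay between 1 of 19, without Ribose replicate 2, and 8 of 19, without Ribose replicate 1, Ribose replicate 3 or Vehicle replicate 2, and the median between -0.14 and -0.01. It was 2 of 18 without Vehicle replicate 1. The Schwann cell marker sum, mostly Pmp22, was lower in all 3 Ribose libraries, though the groups overlapped for each single marker tested. The part of Schwann cells in these values was not tested. Without the libraries numbered 2 in both groups, an alternative added after the data were seen, 4 of 19 were above 0 and the median was -0.10. With protein-coding genes alone at equal totals, 8 of 19 were above 0 and the median was -0.03, where all genes had a median of 0.02. Summed retrograde levels were 2079 ± 186 FPKM in Ribose and 2185 ± 140.1 FPKM in Vehicle, with overlap, and summed anterograde levels were 2316 ± 100.7 FPKM in Ribose and 2330.0 ± 83.6 FPKM in Vehicle.

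The libraries numbered 2 were the highest for many motors. Of the 28 members at 20 FPKM or more, Ribose replicate 2 was the highest library for 10 and Vehicle replicate 2 for 11. Ribose replicates 1 and 3 were each the lowest library for 10, so extremes were not particular to the libraries numbered 2. The same shares over all genes were not counted. Dync1i2 shows the pattern, with 139, 186 and 113 FPKM in the Ribose libraries, against 127, 178 and 117 FPKM in the Vehicle libraries. Kif13b, a kinesin-3, followed it with 6.94, 12.2 and 5.68 FPKM in Ribose, against 6.95, 11 and 6.11 FPKM in Vehicle. For both genes the libraries numbered 2 were the highest of their group, and these were the libraries with the most non-peptidergic and the least large-diameter marker signal. They also had the lowest satellite glia marker sums of their groups, 164 FPKM in Ribose and 259 FPKM in Vehicle. Their neutrophil marker sums lay at opposite ends, the lowest in Ribose at 11.1 FPKM and the highest in Vehicle at 153 FPKM. The part of the neuron types and of other cells in the motor values was not tested.

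**Figure D4:**
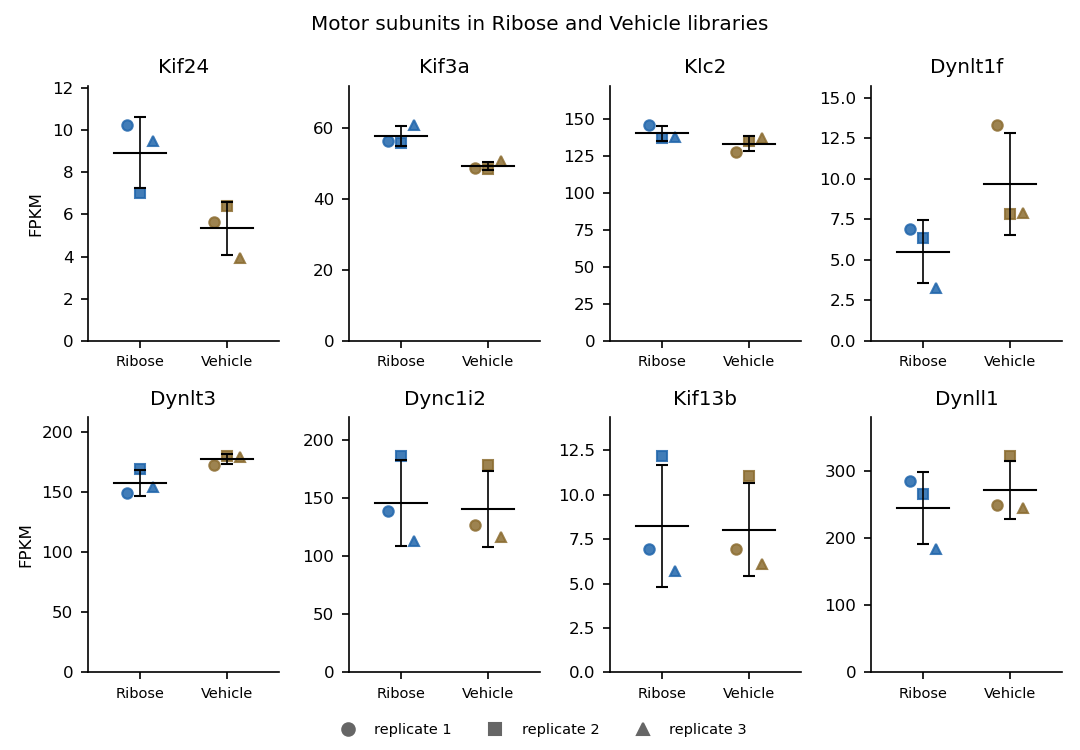
FPKM by library of the 5 members whose Ribose libraries (left in each panel) and Vehicle libraries (right) did not overlap and of Dync1i2, Kif13b and Dynll1, with a line at the mean of 3 libraries and bars of 1 SD. Kif24, Kif3a and Klc2 lay higher in all Ribose libraries, Dynlt1f and Dynlt3 lower, and replicate 2 (squares) was the highest of both groups for Dync1i2 and Kif13b.

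Kinesins of the spindle were scarce in both groups of the ribose experiment. Kif23, a kinesin of the central spindle, had 4.72, 4.33 and 1.73 FPKM in Ribose, against 1.64, 3.01 and 0.911 FPKM in Vehicle. Kif22 had 1.47, 2.68 and 4.50 FPKM in Ribose, against 0.826, 0.676 and 2.59 FPKM in Vehicle. Both overlapped, at log2 changes of 0.68 (SE 0.396) and 0.73 (SE 0.419). All 4 mitotic kinesins tested, Kif11, Kif20a, Kif22 and Kif23, had changes above 0, where 44.8% of all genes did, and none had an unadjusted p under 0.05. Kif20a passed the filter through Ribose, at a mean of 1.28 FPKM against 0.937 FPKM in Vehicle, with 2.83 FPKM in Ribose replicate 3. Of the mitotic kinesins under the filter, Kif18a, Kif18b and Kif2c averaged lower in Ribose, and Kif4, Kif14, Kif15 and Kif20b higher. The 4 signs therefore do not describe the class. Markers of cycling cells summed to 25.5 to 35.8 FPKM in Ribose and 27.2 to 35.9 FPKM in Vehicle, most of it Pcna at 23.5 to 32.5 FPKM in Ribose and 24.6 to 30.3 FPKM in Vehicle. Among the scarcer ones, Mki67 averaged 0.816 FPKM in Ribose and 0.524 FPKM in Vehicle, and Top2a 1.46 FPKM in Ribose and 2.34 FPKM in Vehicle. The part of cycling cells in the kinesin values was not tested. The dynein chains of cilia, Dync2h1 and Dync2li1, had changes of -0.09 and -0.43. Kif2a had 51.6, 43.8 and 46.5 FPKM in Ribose, against 39.6, 47.2 and 48.5 FPKM in Vehicle, and Kif9, a kinesin of motile cilia, had 0.774, 1.20 and 1.74 FPKM in Ribose, against 3.08, 1.46 and 1.04 FPKM in Vehicle. Kif26b averaged 13.4 ± 2.56 FPKM in Ribose and 13.2 ± 3.02 FPKM in Vehicle (SD, n = 3 each), and Kif1bp 41.5 ± 3.93 and 41.4 ± 3.02 FPKM. The groups overlapped for all of these.

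**Figure D5:**
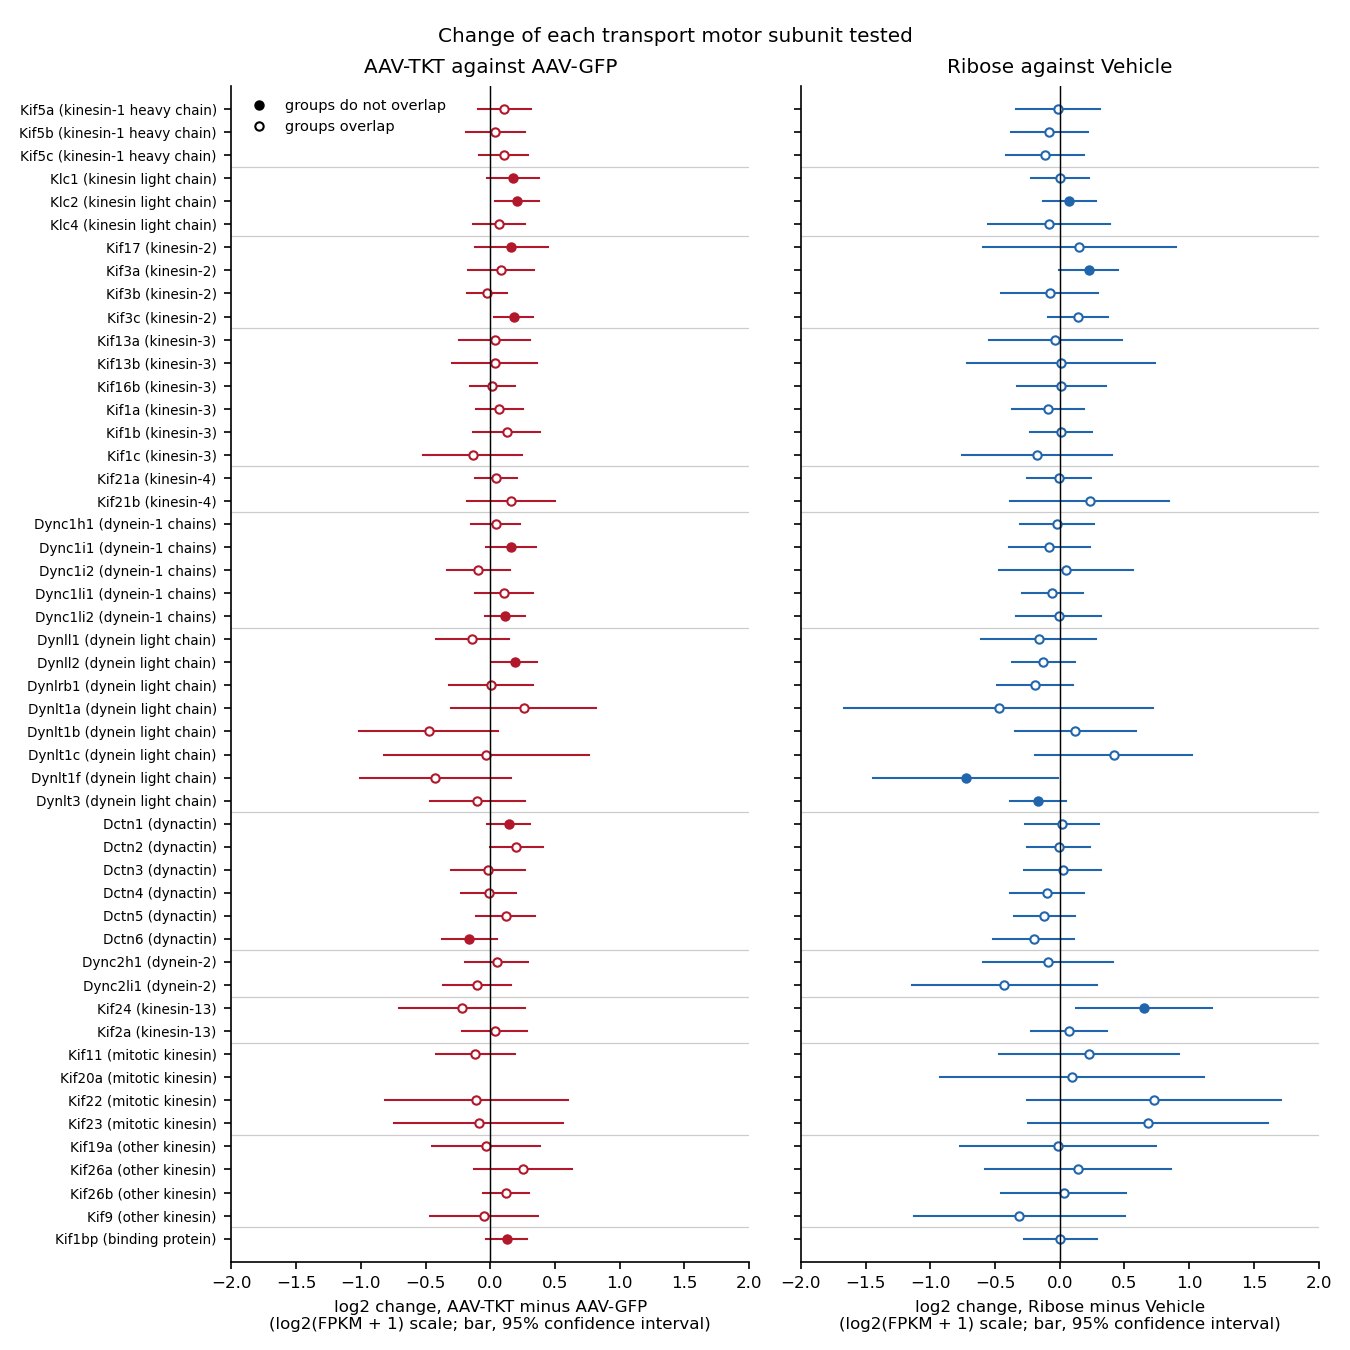
Log2 change of every member tested, by class, for AAV-TKT against AAV-GFP (left) and Ribose against Vehicle (right), with bars of the 95% confidence interval and filled points where the 3 libraries of each group did not overlap. Intervals widen for the scarce mitotic and Dynlt1 genes, and none of the members passed an adjusted p of 0.05.

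Ratios between related subunits, which do not depend on how a library was scaled, were computed for 13 pairs in each table. In the AAV experiment, 3 pairs did not overlap between the groups. The ratio of Dync1i1 to Dync1i2 was 0.67, 0.606 and 0.629 in AAV-TKT, against 0.582, 0.51 and 0.507 in AAV-GFP. The neuron-enriched intermediate chain thus took a larger share of the pair in every AAV-TKT library. The ratio of Dynll2 to Dynll1 was 2.33, 1.56 and 1.58 in AAV-TKT, against 1.44, 1.47 and 1.37 in AAV-GFP, with the high value in AAV-TKT replicate 1, the library that was low for Dynll1. The ratio of Dctn1 to Dync1h1 was 0.876, 0.91 and 0.891 in AAV-TKT, against 0.809, 0.814 and 0.872 in AAV-GFP. For each of the 3, a 2-sided exact permutation test gave p = 0.1, the smallest that 3 against 3 libraries allow, and 0.867 after Benjamini-Hochberg adjustment over all 26 ratios. None of the 13 ratios of the ribose experiment was apart between the groups. There the ratio of Dync1i1 to Dync1i2 was 0.455, 0.47 and 0.705 in Ribose, against 0.654, 0.448 and 0.671 in Vehicle.

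The order within families held across libraries more than it differed between groups. Kif5a exceeded Kif5b, and Kif3c exceeded Kif3a, in 6 of 6 libraries of each table. Kif21a exceeded Kif21b between 77.5-fold and 125-fold in the AAV libraries and between 78.5-fold and 184-fold in the ribose libraries. Kif5c exceeded Kif5b in all 6 AAV libraries and in 4 of the 6 ribose libraries, with the libraries numbered 2 below 1 at 0.96 in Ribose and 0.939 in Vehicle. Dynll2 exceeded Dynll1 in all 6 AAV libraries and in 2 of the 6 ribose libraries.

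A list of 40 adaptors and regulators that work with these motors was set beside them. It holds cargo adaptors of kinesin, activators of dynein, further dynactin subunits and kinesin-14 motors. In the AAV experiment 35 were tested and 0 passed the limma threshold over all genes, while 3 lay higher and 1 lower at an unadjusted p under 0.05, where 6.23% of all genes were higher and 4.36% lower. Changes above 0 numbered 24 of 35, beside 53.7% of all genes. All AAV-TKT libraries lay above all AAV-GFP libraries for 4 of the 35, a share near the 11.3% of all genes. They lay below for 0, beside 7.2% of all genes. Mapk8ip1, a scaffold that binds kinesin light chains and carries signalling kinases, had 171, 169 and 167 FPKM in the AAV-TKT libraries, against 155, 137 and 144 FPKM in the AAV-GFP libraries. The groups did not overlap, at a log2 change of 0.22 (SE 0.0698) and limma adjusted p = 0.399. Madd, which links kinesin-3 to vesicles bearing the GTPase Rab3, had 43.8, 44.6 and 44.8 FPKM in AAV-TKT, against 38.4, 40.3 and 40.5 FPKM in AAV-GFP, again without overlap. Hook1, a dynein activator, had 2.19, 1.87 and 1.503 FPKM in AAV-TKT, against 2.10, 3.09 and 3.42 FPKM in AAV-GFP, with overlap. In the ribose experiment 35 were tested, 0 passed the limma threshold, 0 had an unadjusted p under 0.05, and 9 of 35 changes were above 0, beside 44.8% of all genes. Without overlap, 1 of the 35 lay higher and 2 lower in Ribose, beside 4.28% and 5.35% of all genes. Arl8a, a GTPase that couples lysosomes to kinesins, had 182, 189.8 and 181 FPKM in the Ribose libraries, against 207, 225 and 205 FPKM in the Vehicle libraries. The groups did not overlap, at a log2 change of -0.20 (SE 0.0875) and limma adjusted p = 0.9998. Ndel1, a dynein regulator, had 66.8, 53 and 51.4 FPKM in Ribose, against 68.7, 63.5 and 70.4 FPKM in Vehicle, and Fez1, a kinesin-1 adaptor, had 192, 243 and 173 FPKM in Ribose, against 223, 285 and 219.7 FPKM in Vehicle. Both overlapped between the groups.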

How the data were processed

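Per the labels' protocols, libraries were directional and made from polyadenylated RNA. The submitters' processing notes name bcl2fastq 2.20, Trim Galore, FastQC and the build GRCm38. The sources used here do not give the aligner, the counter, its use of strand or the annotation. The authors deposited FPKM values, 1 table per experiment, with no counts, so depth is unknown and no interval for counting error can be given. Every gene in the AAV table averaged 1 FPKM or more, while the ribose table kept low values. Levels were not tested across tables. Gene IDs were matched to GENCODE M21 (GRCm38), which named 13170 of 13178 and 21612 of 21650. Promoter windows came from RefSeq (GRCm38.p6).

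Members were found by symbol and gene type. The members, the lists and the rule for naming genes were chosen with earlier results of these data known, so no pattern here is independent of them. Named genes were, in each class, the most abundant member and that with the smallest p, up to 6 members per direction without overlap between the groups, and paired paralogs. Of the adaptors, up to 3 per table were named by smallest p. Pairs of motor genes shown for libraries numbered 2, and other members named in passing, were chosen after their values were seen.

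Each table was fitted alone with limma 3.58.1 in R 4.3.3 on log2(FPKM + 1), with a trended variance prior, on genes averaging 1 FPKM or more over 6 libraries. P-values were adjusted over all genes tested by the Benjamini-Hochberg method at 0.05. The fit was tested on simulated data. A fold change on this scale understates that of scarce genes. Ratios of paralogs were compared by exact permutation (Python 3.11.15, scipy 1.17.1). Sequence shared between genes was counted in 31-base words of the annotated transcripts. Same-numbered libraries were checked for pairing by the correlation of their deviations from group means. Alternatives were other pseudocounts and filters, equal totals, median-of-ratios scaling, protein-coding genes alone, a replicate block, weights per library, each library left out in turn and, added after the data were seen, both ribose libraries numbered 2 left out.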

Additional observations from a re-analysis of the deposited data

How the results depend on the processing

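The count of members past an adjusted p of 0.05 was 0 under every alternative run in both tables. Over all genes of the AAV table, 2 were called, against 5 with a pseudocount of 0.1, 4 with a mean of at least 5 FPKM, 4 with equal totals, 8 with protein-coding genes at equal totals and 23 with weights per library. Leaving out 1 library gave 3 to 41. In the ribose table the count was 1, against 2 with a pseudocount of 0.5, 2 with equal totals, 0 with protein-coding genes alone and 6 without both libraries numbered 2. Leaving out 1 library gave 1 to 4. The causes were not tested.

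The median log2 change of anterograde members in the AAV table was 0.00865 with equal totals and 0.0182 with protein-coding genes at equal totals, and 0.0343 to 0.136 with 1 library left out. That of retrograde members was -0.0068 to 0.0769 with 1 library left out. In the ribose table the anterograde median was 0.0526 with protein-coding genes alone and -0.0572 to 0.052 with 1 library left out, and the retrograde median -0.142 to -0.0141.

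Signs turned for the named members that follow. In the AAV table, equal totals gave -0.0283 for Dync1h1, -0.0268 for Kif21a and -0.0351 for Kif2a. Protein-coding genes at equal totals gave -0.0181 for Dync1h1, -0.0167 for Kif21a and -0.025 for Kif2a, and weights gave -0.0162 for Dync1h1. In the ribose table, equal totals gave 0.00816 for Dctn2, 0.0127 for Kif21a and 0.0035 for Kif5a. Protein-coding genes at equal totals gave 0.0449 for Dctn2, 0.0315 for Dync1h1, 0.0495 for Kif21a and 0.0403 for Kif5a. Weights gave 0.00322 for Dctn2, -0.0239 for Kif1b, -0.00315 for Kif1bp, 0.0197 for Kif5a and -0.0167 for Klc1. Without both libraries numbered 2, Kif1bp was -0.0134 and Klc1 -0.0362. With 1 library left out, Dync1h1 ranged from -0.00981 to 0.0851, Kif22 from -0.369 to 0.121 and Kif2a from -0.039 to 0.136 in the AAV table. In the ribose table the ranges were -0.0668 to 0.0474 for Dctn2, -0.0941 to 0.0846 for Dync1h1, -0.178 to 0.0506 for Dync1i1, -0.284 to 0.0298 for Dynll1, -0.15 to 0.0189 for Kif1a and -0.0723 to 0.0616 for Kif1b. They were -0.055 to 0.0841 for Kif1bp, -0.0534 to 0.0745 for Kif21a, -0.0999 to 0.198 for Kif26b, -0.0194 to 0.124 for Kif2a, -0.119 to 0.0962 for Kif5a and -0.0409 to 0.0706 for Klc1.

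The sources do not say that libraries of the same number were paired. Same-numbered deviations correlated at 0.0325, 0.0707 and -0.0144 in the AAV table, and at 0.0418, 0.357 and 0.159 in the ribose table. Those of different numbers lay between -0.104 and 0.0795 in the AAV table, and between -0.26 and 0.145 in the ribose table. A pairing in the ribose experiment can therefore not be told from these values. With the replicate block, 0 genes of the AAV table were called, and Tkt had a log2 change of 1.27 and an adjusted p of 0.0729. No member passed.

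With 3 libraries a group and FPKM of unknown depth, the lack of a call does not show that levels were equal.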

Other observations

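Over the 28 members at 20 FPKM or more, the median coefficient of variation between libraries was 6.43% in AAV-TKT and 7.77% in AAV-GFP, against 6.62% and 7.17% for all genes at that level. It was 9.39% in Ribose and 8.17% in Vehicle, against 11.5% and 11.2% for all genes. The genes set beside the members were not matched to them in abundance. Of the members under the filter in the ribose table, Kif20b, a kinesin of cell division, had 3.18, 0.552 and 0.178 FPKM in Ribose, against 0.173, 0.713 and 1.08 FPKM in Vehicle, so that 1 library held most of its signal. Kif6 and Kif27, kinesins of cilia, lay higher in all 3 Ribose libraries at means under 1 FPKM. Dynlrb2, the scarce relative of Dynlrb1, lay lower in all 3 Ribose libraries and was listed at 0 in Ribose replicates 1 and 3. Without the filter, 5 of 62 members lay higher without overlap, or 8.06%, beside 4.87% of all genes. Lower without overlap were 3 members, or 4.84%, beside 5.43% of all genes. Endothelial markers were not listed in the AAV table, and 3 were listed in the ribose table, at 2.06 to 7.13 FPKM summed in Ribose and 3.45 to 6.87 FPKM in Vehicle.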
